A study of Mus musculus with 12 samples.

Results

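The effect of growth hormone (GH) on wild-type skeletal muscle was read from 6 of the 12 mouse arrays of this series: the 3 arrays whose source label is WT+GH were compared with the 3 whose source label is WT. The study asked how STAT5a and STAT5b act on the growth and fibre makeup of muscle, and crossed genotype (WT, or KO without the Stat5a and Stat5b genes) with GH or no GH, 3 mice each. Biotin-labelled total RNA of each mouse was hybridized to its own Affymetrix array, and the values are MAS5 signals, an intensity on a linear scale. The 3 WT mice carry Stat5a and Stat5b and had no GH, and the 3 WT+GH mice carry both genes and had GH. The labels name blood cells as the place where the genes are lacking in KO mice, while the title of the series speaks of muscle, and this was not settled. Strain, age, sex, the muscle taken, the dose of GH and the time after GH are not stated in the sources used here. Every title gives its own animal number, so the arrays were taken as separate mice. These numbers begin with the letter M on every array with GH and hold no letter on any array without GH. Numbering style and GH therefore go together, and what the style stands for is not stated.

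GH is a pituitary hormone that binds its receptor GHR on liver, muscle and fat cells. The receptor activates the kinase JAK2, which phosphorylates STAT5a and STAT5b, and these enter the nucleus and turn on genes that include Igf1 and the feedback inhibitors Socs2 and Cish. GH also opposes insulin and promotes the breakdown of stored fat.

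Of 45101 probe sets, 64 controls were left out, and each of 18193 genes was read from the brightest of the probe sets that carry its symbol alone. Signals were taken as log2(signal + 25), and a gene is said to have risen or fallen where limma's moderated test on all 45037 non-control probe sets gave a Benjamini-Hochberg adjusted p under 0.05. Values after ± are standard errors for log2 fold changes and standard deviations (n = 3) for signals. On the KO arrays Stat5a read 130 to 361 and Stat5b 333 to 498, below the lowest of the 6 wild-type arrays in each case. Several quality measures also separated the 3 WT+GH arrays from the 3 WT arrays. Among them, only the poly-A and hybridization controls do not come from the muscle RNA. The poly-A control transcripts, which are added before labelling, had a geometric mean signal of 147 to 168 on WT arrays and 442 to 458 on WT+GH arrays, 2.84-fold higher. The median signal of the non-control probe sets was 80.3 to 87.0 on WT arrays and 97.4 to 102 on WT+GH arrays, the 3 prime over 5 prime ratio of beta actin was 0.805 to 0.855 against 0.887 to 0.932, and the hybridization controls read 5143 to 6275 against 4630 to 4967. The Gapdh ratio overlapped between groups, at 0.835 to 0.877 and 0.842 to 0.860. An exact permutation test of 3 arrays against 3 cannot go below p = 0.1, and 4 of these 5 measures reached that (adjusted p = 0.125). GH and whatever moved these controls cannot be told apart in any comparison of WT+GH with WT that follows. These measures were read on the wild-type arrays only, so whether a like shift enters the differences between genotypes was not tested.

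**Figure D1:**
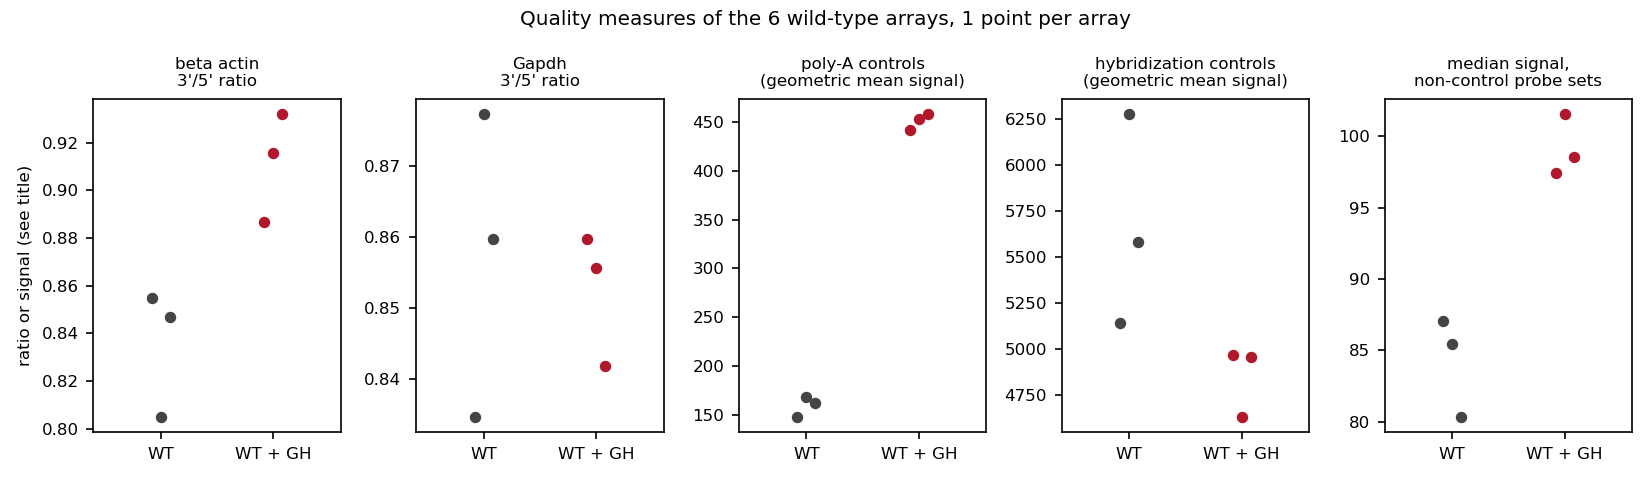
Quality measures of the 6 wild-type arrays, 1 point per array, for WT (dark grey) and WT with GH (red), each panel on its own linear axis that does not start at 0. The poly-A controls (442 to 458 against 147 to 168) and the median signal (97.4 to 102 against 80.3 to 87.0) are higher on all 3 WT+GH arrays, the hybridization controls are lower on all 3, and the Gapdh ratio overlaps.

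GH went with a broad shift in wild-type muscle. Of 18193 genes, 2060 (11.3%) passed the test, 826 (4.54%) higher and 1234 (6.78%) lower with GH, and 4543 genes had an unadjusted p under 0.05. The large changes were mostly rises: 234 genes rose and 138 fell by at least 2-fold, 27 rose and 1 fell by at least 4-fold, and 7 rose and 1 fell by at least 8-fold. The median log2 fold change over all genes was -0.013, and the 3 WT arrays and the 3 WT+GH arrays did not overlap for 2033 of the 2060 genes. By probe set, 2780 (6.17%) were higher and 2016 (4.48%) lower. Over all genes, 12.3% had no overlap and were higher, and 15.8% had no overlap and were lower. Of the 2060 calls, 1975 were in the 12654 genes above the 40th percentile of signal, so the share called is higher there than 11.3%. Most pathway lists below hold almost only such genes. The balance of small rises and falls depended on how the arrays were scaled. Centring each array on its median signal moved the median over genes to -0.20 and gave 429 genes higher and 3202 lower (11.8% of calls higher, against 40.1%), while centring on the genes above the 40th percentile of signal, chosen after seeing the data, gave 53% higher. Changes smaller than 0.2 on the log2 scale are therefore read relative to that shift. The genes were also followed through lists of pathways and cell type markers, which were chosen with earlier results of these data known. Counts over these lists therefore describe these data and are no independent support. Small list counts were unsteady: of 57 counts of 1 to 3 genes that rose or fell, 40 moved by more than 1.5 times when 1 array was left out. So did 17 of 37 counts of 4 or more. Other settings are given at the end of a paragraph where they ended a call, with the adjusted p they gave and, where it moved, the log2 fold change or difference. They were the mean of all probe sets of a gene in place of the brightest, no probe sets of the _x_at, _s_at and _a_at types (which can match several transcripts), other scalings and added constants, plain empirical Bayes, and only the 6 wild-type arrays.

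**Figure D2:**
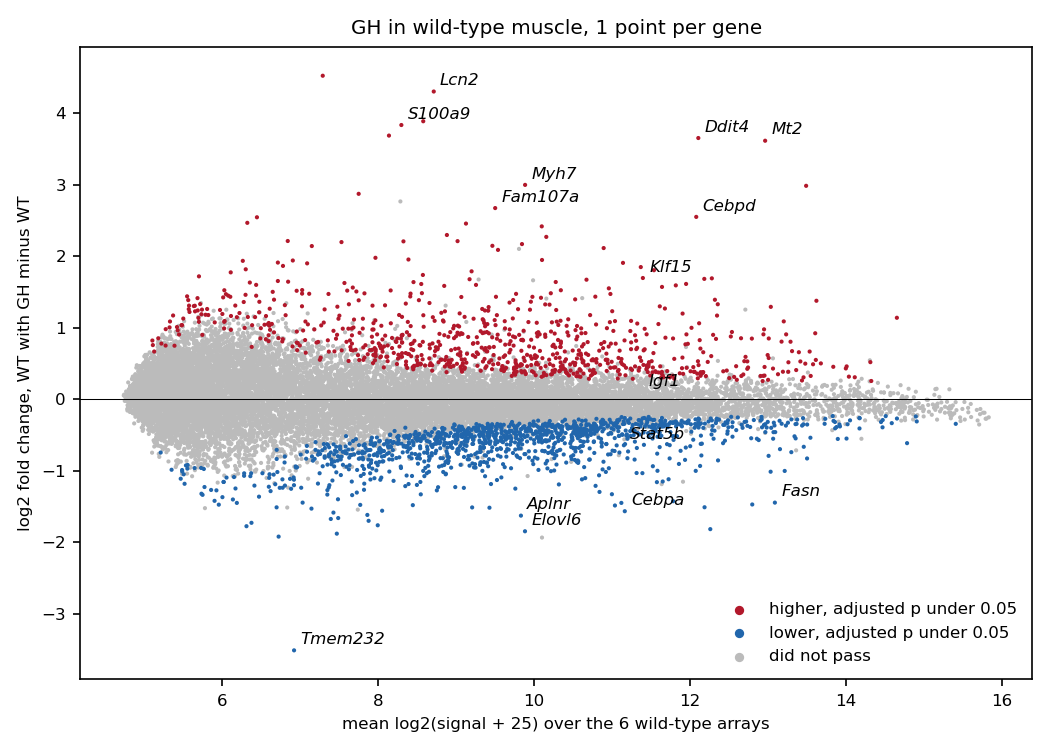
Log2 fold change of each of 18193 genes (WT with GH minus WT) against its mean log2(signal + 25) over the 6 wild-type arrays, with the 826 genes that rose in red, the 1234 that fell in blue and the rest in grey. Rises reach 4.52, while Tmem232 at -3.51 is the only fall past 8-fold.

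The 15 largest rises included Lcn2, Selp, the calprotectin genes S100a8 and S100a9, Ddit4, the metallothioneins Mt1 and Mt2 and the slow myosin Myh7. Gm13306, a predicted gene, read 2.60, 11.2 and 9.72 on the WT arrays and 689.7, 913 and 605 on the WT+GH arrays (log2 fold change 4.52 ± 0.29, adjusted p = 7.31e-08). Lcn2 encodes lipocalin 2, which binds bacterial siderophores, and read 84.2, 46.3 and 83.1 on the WT arrays and 1575, 1996 and 1978 on the WT+GH arrays (4.30 ± 0.17, adjusted p = 7.82e-10). Selp, the P-selectin of activated platelets and endothelium, read 162, 37.4 and 58.9 on the WT arrays and 1422, 1457 and 1456 on the WT+GH arrays (3.89 ± 0.33, adjusted p = 2.32e-06). Genes were taken for these 15 only where the WT+GH arrays did not overlap the WT arrays, so that separation follows from the choice. The fold changes of Lcn2 and Selp were 19.7 and 14.8 on the log2(signal + 25) scale, which understates changes from a dim start. Ddit4, an inhibitor of the growth kinase complex mTORC1, read 917, 1418 and 1383 on the WT arrays and 16889, 14232 and 15771 on the WT+GH arrays (3.65 ± 0.18, adjusted p = 7.78e-09). The metallothioneins Mt1 and Mt2, which bind zinc and copper, rose by 2.98 ± 0.28 and 3.62 ± 0.34 on the log2 scale. Mt2 read 1642, 1743 and 3986 on the WT arrays and 30509, 25594 and 27780.0 on the WT+GH arrays, and WT array 3 was the highest of its group for both metallothioneins. Lncpint, a long noncoding RNA, rose by 2.87 ± 0.30, and Cebpd, a transcription factor of the C/EBP family, by 2.55 ± 0.089, the smallest adjusted p in the comparison (1.65e-10). Fam107a, an actin-associated protein, rose by 2.67 ± 0.17, Map3k6, a stress-activated kinase, by 2.46 ± 0.13, Slc10a6, a carrier of sulphated steroids, by 2.42 ± 0.17, and the predicted gene Gm20199 by 2.47 ± 0.28. S100a8, S100a9 and Myh7 complete the 15 largest rises and are described with their groups.

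Of the 15 largest rises, 14 had an entry in the RefSeq promoter table (build GRCm38.p6), and 5 of these 14 held the letters of a glucocorticoid response element in the 250 bases before the start. The pattern searched was GNACA followed after any 3 bases by TGTNC, which reads the same on both strands, and 127 of 32851 promoters of this length hold it (0.387%). The 5 promoters are shown because they belong to genes that rose by at least 4-fold, with the match in capitals, each written 5′ to 3′ on the strand of its gene and ending at the base before the start.
Fam107a, chr14:8309780-8310029, minus strand: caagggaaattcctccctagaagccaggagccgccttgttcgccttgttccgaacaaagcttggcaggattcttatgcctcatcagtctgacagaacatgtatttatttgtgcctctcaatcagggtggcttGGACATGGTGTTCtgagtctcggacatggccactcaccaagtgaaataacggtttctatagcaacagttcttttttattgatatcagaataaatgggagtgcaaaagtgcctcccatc
Gm20199, chr9:59481742-59481991, minus strand: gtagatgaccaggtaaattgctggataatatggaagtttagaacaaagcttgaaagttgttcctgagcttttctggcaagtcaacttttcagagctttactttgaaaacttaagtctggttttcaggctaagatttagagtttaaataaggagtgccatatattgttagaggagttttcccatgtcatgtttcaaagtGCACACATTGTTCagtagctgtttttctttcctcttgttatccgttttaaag
Map3k6, chr4:133240568-133240817, plus strand: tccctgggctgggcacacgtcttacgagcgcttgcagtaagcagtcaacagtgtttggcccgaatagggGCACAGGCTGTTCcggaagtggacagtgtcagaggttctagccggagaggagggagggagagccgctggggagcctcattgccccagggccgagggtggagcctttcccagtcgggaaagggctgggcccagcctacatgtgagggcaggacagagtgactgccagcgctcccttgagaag
Mt1, chr8:94178839-94179088, plus strand: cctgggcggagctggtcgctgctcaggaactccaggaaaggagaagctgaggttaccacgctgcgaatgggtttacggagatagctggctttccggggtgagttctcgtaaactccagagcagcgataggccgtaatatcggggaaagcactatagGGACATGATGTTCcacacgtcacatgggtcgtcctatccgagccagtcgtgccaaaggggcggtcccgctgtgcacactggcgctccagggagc
Slc10a6, chr5:103629404-103629653, minus strand: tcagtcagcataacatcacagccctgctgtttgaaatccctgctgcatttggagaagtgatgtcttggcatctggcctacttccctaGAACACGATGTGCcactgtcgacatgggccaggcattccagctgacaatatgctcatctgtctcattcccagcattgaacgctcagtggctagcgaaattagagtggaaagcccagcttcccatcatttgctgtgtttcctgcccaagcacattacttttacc
The matches begin at -118 for Fam107a, -52 for Gm20199, -181 for Map3k6, -94 for Mt1 and -163 for Slc10a6, counted from the start. In Gm20199 the match overlaps a metal response core (TGCNCNC, either strand) that begins at -53, and 44.4% of all promoters hold that short core. The other 4 matches overlap no other pattern searched. By class, 5 of 22 genes that rose at least 4-fold and have a promoter entry held the glucocorticoid pattern (22.7%), as did 8 of 641 that rose (1.25%), 3 of 959 that fell (0.313%), none of 106 that fell at least 2-fold, and 51 of 14452 with a probe set (0.353%). The other 3 of the 8 were Kcna5, Sgk1 and Trim63, which rose less than 2-fold. A match describes the letters in this window and is no evidence that a receptor binds there.

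The pattern TTCNNNGAA, the letters that STAT dimers bind and the same on both strands, stood in 7.02% of the 32851 promoters. It was found for 54 of 641 genes that rose (8.42%), 22 of 184 that rose at least 2-fold, 65 of 959 that fell (6.78%) and 1073 of 14452 with a probe set (7.42%). Among the 22 genes that rose at least 4-fold only Socs3 held it, beginning at -154 and overlapping no other pattern searched. Its promoter is shown because Socs3 was the feedback inhibitor that rose, with the match in capitals.
Socs3, chr11:117969367-117969616, minus strand: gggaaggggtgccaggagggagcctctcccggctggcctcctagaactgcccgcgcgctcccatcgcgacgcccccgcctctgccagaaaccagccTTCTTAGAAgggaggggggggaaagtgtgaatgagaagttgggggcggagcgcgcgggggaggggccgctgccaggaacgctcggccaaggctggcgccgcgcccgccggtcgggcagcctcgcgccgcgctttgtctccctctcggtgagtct
The sterol element TCACNCCAC, searched on both strands and held by 1.05% of all promoters, was found for 10 of 959 genes that fell (1.04%), 7 of 641 that rose (1.09%) and 183 of 14452 with a probe set (1.27%). On both strands, the FOXO letters GTAAACA (3.17% of all promoters) stood in 13 of 641 that rose (2.03%), 35 of 959 that fell (3.65%) and 439 of 14452 (3.04%), and the E-box CACGTG of clock factors (6.02%) in 67 of 641 (10.5%), 100 of 959 that fell (10.4%) and 1262 of 14452 (8.73%). The cyclic AMP element TGACGTCA (1.55%) was found for 18 of 641 genes that rose (2.81%), 27 of 959 that fell (2.82%) and 361 of 14452 (2.5%). The short metal response core TGCNCNC was common in every class, in 363 of 641 genes that rose (56.6%) and 562 of 959 that fell (58.6%). It stood in 18 of 22 that rose at least 4-fold (81.8%), beside 7861 of 14452 with a probe set (54.4%).

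The largest falls were smaller than the largest rises, with only Tmem232 past 4-fold. Tmem232, a membrane protein, read 233, 479 and 504 on the WT arrays and 9.63, 13.8 and 9.35 on the WT+GH arrays (-3.51 ± 0.66, adjusted p = 0.00397). Ccl24, a chemokine that draws eosinophils, read 324, 340.0 and 284 on the WT arrays and 52.8, 60.1 and 93.9 on the WT+GH arrays (-1.88 ± 0.20, adjusted p = 1.41e-05). Cebpa, the C/EBP factor of mature fat cells, read 3708, 3865 and 4199.8 on the WT arrays and 1291, 1349 and 1278 on the WT+GH arrays (-1.57 ± 0.15, adjusted p = 5.74e-06). The largest falls were likewise taken only from genes without overlap between the groups, so their separation follows from the choice. The 3 WT+GH arrays of Cebpa lay within 1278 to 1349. Log2 fold changes were -1.63 ± 0.10 for Aplnr, the apelin receptor of endothelium, -1.85 ± 0.33 for Elovl6, which lengthens palmitate, and -1.76 ± 0.20 for Meox1, a homeobox gene of the somites. They were -1.68 ± 0.22 for Cxcr4, the receptor of the chemokine CXCL12, -1.66 ± 0.24 for Hcar2, a niacin and ketone body receptor of fat cells and macrophages, -1.70 ± 0.31 for Kcnk3, a potassium leak channel, and -1.59 ± 0.29 for Ppp1r3b, which targets a phosphatase to glycogen. Siglech, a receptor of plasmacytoid dendritic cells, changed by -1.78 ± 0.24, the kinase Stk10 by -1.62 ± 0.34 and the predicted gene Gm17753 by -1.73 ± 0.27. Stmn4, a stathmin of neurons, fell (-1.92 ± 0.45), a call that was lost with 1 array fewer (adjusted p = 0.0574 to 0.0643 without WT array 3 or WT+GH array 2 or 3). For Smim10l1 (-1.82 ± 0.24), other probe sets of the gene ranged up to 0.52, so its probe sets did not move together. Kcnk3 (-1.21, adjusted p = 0.0577) lost its call over the mean of all probe sets.

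The receptor and its kinase were not called, and of the pathway's feedback inhibitors Socs3 rose while Socs1 fell. Ghr, the GH receptor, read 8572, 6977 and 7698 on the WT arrays and 7716, 6831 and 7216 on the WT+GH arrays, and its log2 fold change was -0.092 ± 0.085 (95% confidence interval -0.29 to 0.11, adjusted p = 0.58). Jak2 read 1004, 753 and 945 on the WT arrays and 874, 1212 and 1075 on the WT+GH arrays (0.22 ± 0.13, interval -0.081 to 0.52, adjusted p = 0.338). The arrays of both groups overlapped for these genes, and the intervals leave room for changes of up to 0.29 in Ghr and 0.52 in Jak2. Intervals here and for Igf1 below use only the 8 residual degrees of freedom, so they are no narrower than those of the moderated test. Stat5b read 2955, 2639.8 and 2866 on the WT arrays and 1694, 1792 and 1896 on the WT+GH arrays and fell (-0.65 ± 0.11, adjusted p = 0.00121). Stat5a read 729.9, 589 and 561 on the WT arrays and 384, 436 and 385 on the WT+GH arrays, lower on every WT+GH array, but did not pass (-0.60 ± 0.21, adjusted p = 0.0774), while its other, dimmer probe set gave -0.80 and passed. It also passed with 1 array fewer (adjusted p = 0.0285 to 0.0349 without KO array 1 or 3), over the mean of its probe sets, under median centring, with the filter at the 60th percentile and with only the 6 wild-type arrays.

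Socs3, which blocks JAK kinases at cytokine receptors, read 361, 295 and 633 on the WT arrays and 1531, 1990.5 and 2335 on the WT+GH arrays (2.17 ± 0.29, adjusted p = 4.19e-04), and all 3 of its probe sets rose. Cish, a STAT5 target that binds the receptor, read 2274, 4019 and 8725 on the WT arrays and 9274, 11023 and 10684 on the WT+GH arrays (1.25 ± 0.45, adjusted p = 0.126). The WT arrays of Cish were widely spread, WT array 3 came close to the lowest WT+GH array, and the gene was called with 1 array fewer (adjusted p = 0.00672 without WT array 3). Socs2, the inhibitor whose loss makes mice large, read 1240.2, 1776 and 2156 on the WT arrays and 2211, 2316 and 2419 on the WT+GH arrays (0.45 ± 0.16, adjusted p = 0.0817), with the same pattern and a call at adjusted p = 0.0193 without WT array 3. Socs1, another inhibitor of JAK kinases, fell (-0.86 ± 0.18). Ptpn1, a phosphatase that acts on JAK2 and the insulin receptor, rose by 1.04 ± 0.095, Stat3 by 0.82 ± 0.14 and the adaptor Grb10 by 0.39 ± 0.082, while Sirpa, a phosphatase-binding receptor, changed by -0.83 ± 0.13. In all, 4 of the 16 measured genes of GH receptor signalling rose, 3 fell and 9 did not pass, with a median of -0.031 beside -0.013 over all genes. Without the _x_at, _s_at and _a_at probe sets 1 gene of this list rose. Ptpn1 (0.44, adjusted p = 0.143) and Stat3 (0.20, adjusted p = 0.382) lost their calls without the _x_at, _s_at and _a_at probe sets. Grb10 (0.21, adjusted p = 0.134) lost its call under median centring.

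Igf1 read 2606, 2111 and 3081 on the WT arrays and 2596, 2670.5 and 3026 on the WT+GH arrays, and its change was 0.10 ± 0.19 (interval -0.33 to 0.53, adjusted p = 0.809). The groups overlapped, none of its 4 probe sets was called, and the interval allows a change of up to 0.53 on the log2 scale. On the IGF axis as a whole 4 of 15 genes rose and 2 fell. Igfbp3, the main carrier of IGF1 in blood, rose by 0.75 ± 0.12, Pappa, a protease that frees IGF from its carriers, by 1.05 ± 0.21, its inhibitor Stc2 by 0.82 ± 0.17 and the receptor Igf1r by 0.50 ± 0.11. Igfbp6 (-0.33 ± 0.073) and the clearance receptor Igf2r (-0.38 ± 0.098) fell, and the call of Igf2r was lost with 1 array fewer (adjusted p = 0.0553 to 0.0813 without WT array 3 or WT+GH array 2 or 3). Of 17 genes known as STAT5 targets, 5 rose (Socs3, Bcl2l1, Cebpb, Myc and Mcl1), 3 fell (Nr1d1, Ccnd1 and Cdkn2b) and 9 did not pass, with a median of 0.22. The survival gene Bcl2l1 rose by 1.07 ± 0.12 and the cyclin gene Ccnd1 changed by -0.79 ± 0.14. In insulin signalling 3 of 17 rose and 2 fell: Foxo1, a factor that insulin keeps out of the nucleus, rose by 1.47 ± 0.13, and Pik3r1, the regulatory subunit of PI3 kinase, by 0.62 ± 0.13, while Tbc1d4, which holds back GLUT4 vesicles, changed by -0.59 ± 0.12. Igf2r (-0.093, adjusted p = 0.479) and Tbc1d4 (-0.15, adjusted p = 0.757) lost their calls over the mean of all probe sets. Igf1r (0.32, adjusted p = 0.0753) lost its call under median centring, and Igf2r (adjusted p = 0.0722) and Igfbp6 (adjusted p = 0.0617) with plain empirical Bayes.

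**Figure D3:**
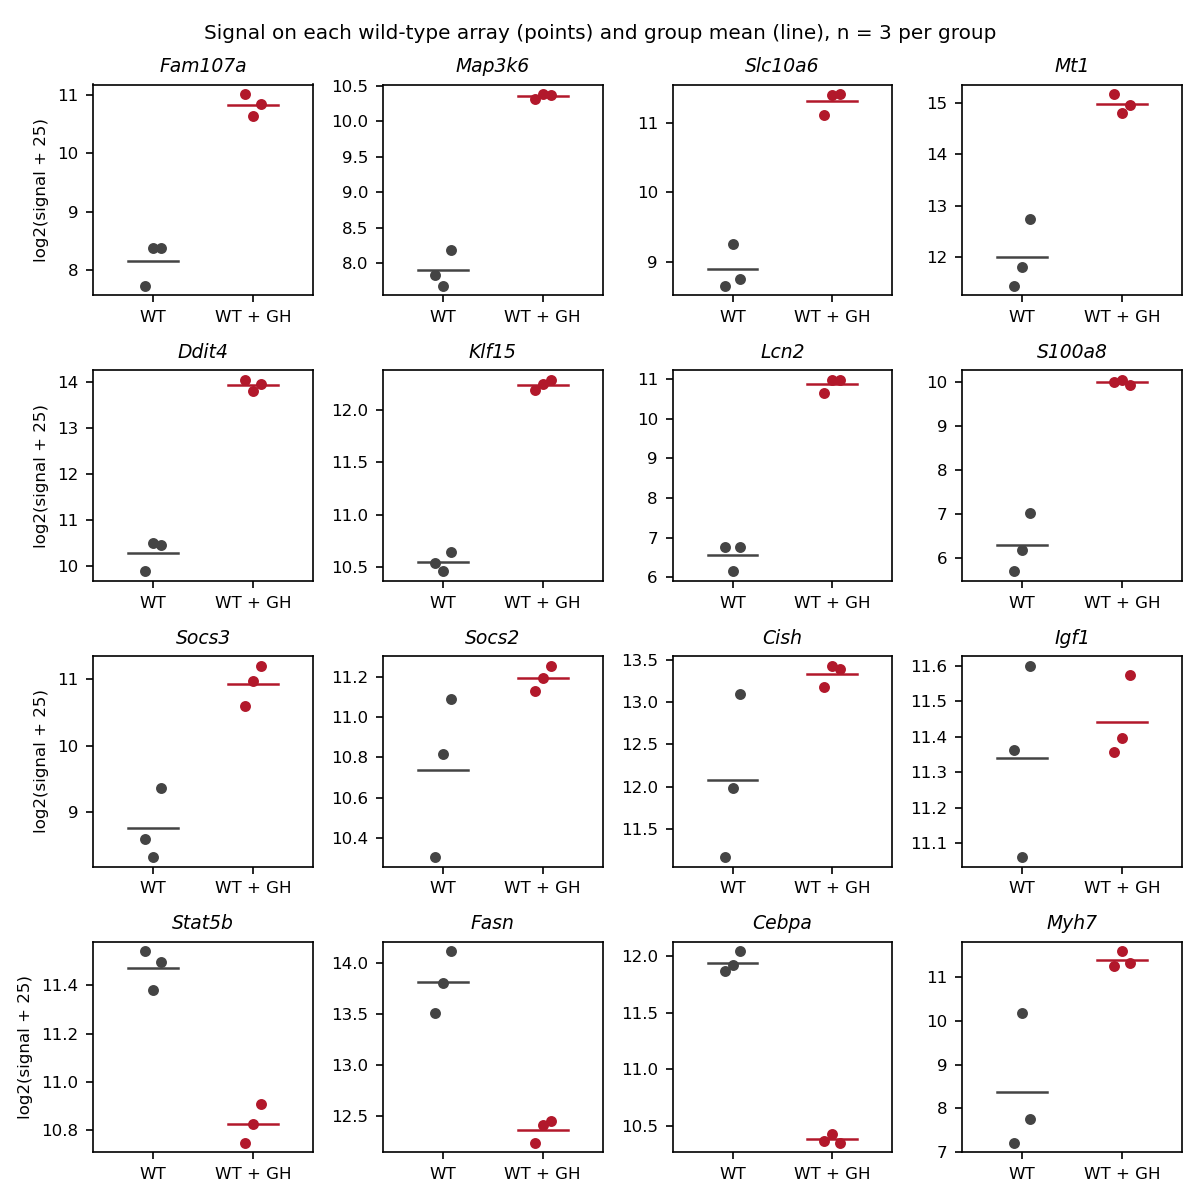
Log2(signal + 25) of 16 genes on each of the 6 wild-type arrays (points) with the group mean (line), n = 3 per group, every panel on its own axis. Ddit4, Klf15, Lcn2, Fasn and Cebpa separate the groups by more than their spread, Igf1 overlaps, and the WT arrays of Cish and Myh7 are spread out.

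Genes that glucocorticoids induce in many tissues were the list with the most calls: 15 of 20 rose, 1 fell and 4 did not pass, with a median of 1.34 beside -0.013 over all genes. Besides Ddit4, Cebpd, Mt1 and Mt2 these held Klf15, a factor that drives amino acid breakdown in muscle. Klf15 read 1458, 1381 and 1578 on the WT arrays and 4643, 4830.0 and 4979 on the WT+GH arrays (1.69 ± 0.11, adjusted p = 6.93e-08). Fkbp5, a chaperone that restrains the glucocorticoid receptor, read 1619, 907 and 1736 on the WT arrays and 5063, 4899 and 4995 on the WT+GH arrays (1.85 ± 0.17, adjusted p = 3.38e-06). The groups did not overlap for either gene, although 1 of the 3 probe sets of Fkbp5 gave -0.089. Zbtb16, a zinc-finger factor, rose by 1.69 ± 0.15, Errfi1, an inhibitor of the EGF receptor, by 1.55 ± 0.15, Gadd45g by 1.59 ± 0.17, Cdkn1a, the cell cycle inhibitor p21, by 1.40 ± 0.19, and Glul, glutamine synthetase, by 1.29 ± 0.14. Smaller rises were found for Tsc22d3, the glucocorticoid-induced leucine zipper (0.80 ± 0.10), the kinase Sgk1 (0.92 ± 0.16) and the clock gene Per1 (0.92 ± 0.20). Hsd11b1, the enzyme that regenerates active glucocorticoid, fell (-0.73 ± 0.17). Nr3c1, the glucocorticoid receptor, had a change of 0.034 ± 0.12 (adjusted p = 0.91). Tsc22d3 (0.50, adjusted p = 0.0707) lost its call without the _x_at, _s_at and _a_at probe sets. Hsd11b1 (adjusted p = 0.0561) lost its call with plain empirical Bayes.

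Genes of the acute phase and of STAT3 signalling rose in 11 of 24 cases, and 1 fell (median 0.71). Osmr, the oncostatin M receptor, rose by 1.47 ± 0.11, Il6ra by 0.80 ± 0.15, Il6st, the shared signalling chain gp130, by 0.50 ± 0.086, and Lrg1, a secreted glycoprotein, by 0.78 ± 0.081. Fgg, a fibrinogen chain, rose from a dim signal (mean 8.73 ± 7.45 to 58.6 ± 6.01), and Orm1, an acute phase glycoprotein, fell (-0.94 ± 0.23), a call that was lost with 1 array fewer (adjusted p = 0.0641 to 0.078 without WT array 3 or WT+GH array 1). Of 14 neutrophil alarm genes 5 rose and 1 fell. S100a8 and S100a9 form calprotectin, the main cytosolic protein of neutrophils. S100a8 read 26.8, 47.7 and 104 on the WT arrays and 986, 1027 and 947 on the WT+GH arrays (3.69 ± 0.30, adjusted p = 7.98e-07), and S100a9 read 60.7, 41.1 and 76.9 on the WT arrays and 1155, 1117 and 1219.9 on the WT+GH arrays (3.83 ± 0.18, adjusted p = 4.42e-09). Both genes were low on all WT arrays and close together on the 3 WT+GH arrays. Ngp, a granule protein, rose by 1.62 ± 0.19 and Mmp8, neutrophil collagenase, by 1.36 ± 0.28, and Camp, cathelicidin, by 1.46 ± 0.42. The call of Camp was lost with 1 array fewer (adjusted p = 0.0605 to 0.146 without WT array 1 or 3 or WT+GH array 1 or 3). Lyz2, the lysozyme of macrophages and neutrophils, fell (-1.12 ± 0.22). Il6st (0.23, adjusted p = 0.236) lost its call over the mean of all probe sets. Camp (1.27, adjusted p = 0.055) lost its call under median centring, Camp (1.31, adjusted p = 0.0684) after quantile normalization, Camp (2.08, adjusted p = 0.0593) with an added constant of 5, and Camp (adjusted p = 0.0699) and Orm1 (adjusted p = 0.0579) with plain empirical Bayes.

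Neutrophil markers moved the same way: 5 of 11 rose and none fell, the 5 being S100a8, S100a9, Ngp, Camp and Mmp8 again, and their summed signal was 575 to 751 on WT arrays and 3196 to 3208 on WT+GH arrays. Their part in the rise of Lcn2 was not tested, nor can more such cells be told apart from more RNA per cell in whole muscle. Lymphocyte markers (0 of 11) and red cell markers (0 of 5) gave no call in limma, with 3 and 1 at an unadjusted p under 0.05. Their summed signals were 470 to 836 and 451 to 618 on WT arrays, and 431 to 654 and 534 to 591 on WT+GH arrays. Most of these markers were dim: 2 of 11 and 2 of 5 lie above the 40th percentile of signal, where 1975 of the 2060 calls were made.

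Among chemokine and NF-kB genes 5 of 27 rose and 3 fell. Icam1, an adhesion molecule for leukocytes, rose by 1.64 ± 0.18, Nfkbia, the inhibitor of NF-kB, by 1.09 ± 0.12, and Cxcl1, a neutrophil attractant, by 0.69 ± 0.15. Cxcl12 changed by -0.53 ± 0.098. Without WT array 2 or 3, 3 members of the chemokines and NF-kB list rose. Interferon and MHC class I genes were split, 4 rising and 4 falling of 29, and 2 rises or 2 falls were left without WT array 2 or 3, any WT+GH array or any KO+GH array. Ifit1 rose by 1.56 ± 0.21 and Irf9 by 0.74 ± 0.15, while the class I chains H2-D1 (-1.02 ± 0.20) and H2-K1 (-0.74 ± 0.15) fell, though probe sets of these genes ranged up to 0.59 and 0.054 and class I genes share sequence. Of 17 zinc and metallothionein genes 5 rose and 1 fell: the zinc importer Slc39a14 rose by 1.95 ± 0.16 and the exporter Slc30a2 by 0.88 ± 0.12, beside Mt1 and Mt2, and Slc39a7, which moves zinc out of the Golgi and endoplasmic reticulum, changed by -0.47 ± 0.093. Cxcl12 (-0.28, adjusted p = 0.368) and H2-D1 (-0.37, adjusted p = 0.201) lost their calls over the mean of all probe sets.

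Genes of fatty acid synthesis fell together: 12 of 19 fell, 1 rose and 6 did not pass, with a median of -0.62. Fasn, fatty acid synthase, read 11637, 14274 and 17732 on the WT arrays and 4784, 5402 and 5568 on the WT+GH arrays (-1.45 ± 0.18, adjusted p = 9.71e-05). All 3 WT+GH arrays lay far below the lowest WT array. Acly, which makes cytosolic acetyl-CoA, changed by -1.43 ± 0.26, Acaca, which makes malonyl-CoA, by -1.30 ± 0.21, the citrate carrier Slc25a1 by -1.33 ± 0.29 and Tkt, transketolase, by -1.47 ± 0.29. The desaturases Scd1 (-0.62 ± 0.11) and Scd2 (-0.82 ± 0.13), the lipogenic regulators Thrsp (-1.004 ± 0.14) and Srebf1 (-0.49 ± 0.096), Elovl5 (-0.56 ± 0.10) and Pgd, an NADPH-producing enzyme (-0.88 ± 0.14), fell as well. Acacb, the acetyl-CoA carboxylase that controls fat oxidation in muscle, was the member that rose (0.36 ± 0.099), a call that was lost with 1 array fewer (adjusted p = 0.0508 to 0.12 without WT array 1 or 2 or WT+GH array 1 or 3). Without any 1 of the 12 arrays the count of members that fell was 12, and the mean of all probe sets gave 9. Acaca (-0.76, adjusted p = 0.0695), Acacb (0.20, adjusted p = 0.564), Acly (-0.40, adjusted p = 0.142) and Thrsp (-0.66, adjusted p = 0.0908) lost their calls over the mean of all probe sets. Acacb (0.17, adjusted p = 0.403) lost its call under median centring, Acacb (adjusted p = 0.119) with plain empirical Bayes, and Acacb (adjusted p = 0.0855) with only the 6 wild-type arrays.

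In triglyceride synthesis and lipolysis, 11 of 25 genes fell and 3 rose (median -0.24). The synthetic enzymes Agpat2 (-1.49 ± 0.15), Dgat2 (-0.86 ± 0.088) and Gpat4 (-0.83 ± 0.16) and the lipid droplet protein Cidec (-1.02 ± 0.13) fell, as did Lipe, hormone-sensitive lipase (-0.83 ± 0.18). The droplet coat genes Plin4 (0.91 ± 0.077) and Plin5 (0.68 ± 0.15) rose, and so did Gpihbp1, which carries lipoprotein lipase across endothelium (0.58 ± 0.13). Without WT array 2 or 3, or without WT+GH array 2 or 3, 7 members fell, and 6 with plain empirical Bayes. Of 28 genes of fatty acid oxidation 10 fell and 1 rose (median -0.19). Ppara, a nuclear receptor that fatty acids activate, read 379, 593 and 728 on the WT arrays and 1293, 1208 and 1184 on the WT+GH arrays (1.13 ± 0.17, adjusted p = 4.01e-04), with no overlap. The falls were small. Mlycd, which removes malonyl-CoA, had -0.38 ± 0.090 (adjusted p = 0.0559 without WT+GH array 2), and Hadhb, a subunit of the trifunctional protein, had -0.41 ± 0.074, against 0.080 over the mean of its probe sets. Their number dropped to 2 without WT+GH array 2, to 4 without WT+GH array 3 or WT array 2 and to 6 without WT+GH array 1 or WT array 3, and it was 3 when arrays were centred on the genes above the 40th percentile, 2 with only the 6 wild-type arrays and 1 with plain empirical Bayes. In cholesterol synthesis and uptake 4 of 21 fell (19.0%) and none rose, with Insig1, a sensor that holds back SREBP, at -0.77 ± 0.14 and Cyp51, an enzyme of sterol demethylation, at -1.10 ± 0.28. Without WT+GH array 2 or WT array 3 only 1 of these 4 calls was left, and without WT+GH array 3 there were 2, and the mean of all probe sets gave 1. The call of Cyp51 was lost with 1 array fewer (adjusted p = 0.0594 to 0.0856 without WT array 1 or 3 or WT+GH array 2). Cyp51 (-0.33, adjusted p = 0.421), Gpat4 (-0.43, adjusted p = 0.204) and Lipe (-0.26, adjusted p = 0.365) lost their calls over the mean of all probe sets. Gpihbp1 (0.40, adjusted p = 0.0657) lost its call under median centring, Gpihbp1 (adjusted p = 0.0621) and Mlycd (adjusted p = 0.0683) with plain empirical Bayes, and Cyp51 (adjusted p = 0.0551) and Gpihbp1 (adjusted p = 0.0517) with only the 6 wild-type arrays.

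Markers of fat cells moved with these genes. Of 12 adipocyte markers 9 fell and none rose (median -0.75), and their summed signal was 102694 to 124776 on WT arrays and 80536 to 90948 on WT+GH arrays. Adipoq, adiponectin, read 13127, 13397 and 16061 on the WT arrays and 9924, 7578 and 9363 on the WT+GH arrays (-0.67 ± 0.16, adjusted p = 0.0112, and adjusted p = 0.0604 to 0.0645 without WT array 3 or WT+GH array 2). Retn, resistin, changed by -0.89 ± 0.16 and Pparg, the master regulator of fat cells, by -0.96 ± 0.20. Without WT+GH array 2 or WT array 3, or with plain empirical Bayes, 5 markers fell. The brown fat genes were uneven between mice. Ucp1, the uncoupling protein of brown fat, read 1994, 7858 and 6927 on the WT arrays and 2035, 2081 and 2128 on the WT+GH arrays (-1.19 ± 0.54, adjusted p = 0.226), and Cidea read 2747, 7992 and 8461 on the WT arrays and 2562, 2557 and 2532 on the WT+GH arrays (-1.15 ± 0.37, adjusted p = 0.0766). WT arrays 2 and 3 stood high for both genes, while WT array 1 was close to the WT+GH arrays. Without WT array 1 both were called lower (adjusted p = 0.0167 for Ucp1 and 9.72e-06 for Cidea), and Cidea was also called under median centring, with array weights, over the mean of all probe sets and with the filter at the 60th percentile. Brown fat is a tissue distinct from muscle, and its defining gene Ucp1 was bright on all 6 arrays. In whole muscle, fewer fat cells cannot be told apart from less RNA of these genes per cell, and the part of fat tissue in the falls of fatty acid synthesis genes was not tested. Adipoq (adjusted p = 0.0688) lost its call with plain empirical Bayes.

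In sugar metabolism the calls went both ways, with 4 of 28 genes of glycolysis and glycogen rising and 3 falling. The falls were 6 without WT+GH array 1, and the rises were 2 without WT+GH array 3 or WT array 3. Pfkfb4, which makes the activator fructose 2,6-bisphosphate, rose by 1.61 ± 0.13, and Ppp1r3c, which promotes glycogen storage, by 1.14 ± 0.16. Pfkfb3 (-0.85 ± 0.22; adjusted p = 0.0652 to 0.109 without WT array 1 or 3 or WT+GH array 1 or 2), Fbp2, the muscle fructose bisphosphatase (-0.91 ± 0.17), and the kinase Pdk2 (-0.37 ± 0.076) fell. In the citric acid cycle 4 of 22 genes (18.2%) fell by 0.24 to 0.36 and none rose, and no call was left without WT+GH array 2, 1 was left without WT+GH array 3, WT array 2 or 3 or any 1 KO+GH array, and 2 without KO array 1 or 2. Of the respiratory chain, 1 of 29 genes of complex I was called and 2 of 34 of complexes II to V, shares of 3.45% and 5.88% against 11.3% of all genes. Among mitochondrial ribosomal proteins 7 of 44 fell (15.9%) and none rose (median -0.21). All 44 lie above the 40th percentile of signal, where 1975 of 12654 genes were called in either direction. Leaving out single arrays gave from 1 to 16 falls in mitochondrial ribosomal proteins, with 1 without WT+GH array 3 or WT array 2, 2 without WT array 3, 3 without WT+GH array 2 and 16 without WT array 1. Centring arrays on the genes above the 40th percentile left 2 of these falls and none of those in the citric acid cycle, and plain empirical Bayes left none in either list. Of 32 cytosolic ribosomal proteins 2 rose, Rpl37 (0.95 ± 0.13) and Rpl12 (0.79 ± 0.13), and both belong to families with many near-identical copies in the genome. Their median was -0.036. Pfkfb3 (-0.67, adjusted p = 0.0932) lost its call over the mean of all probe sets. Pdk2 (adjusted p = 0.0575) and Pfkfb3 (adjusted p = 0.0741) lost their calls with plain empirical Bayes.

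With GH 5 of the 14 slow-fibre genes measured were called higher and 1 lower, with a median of 0.54, and the WT arrays differed widely among themselves. Their summed signals overlapped, at 87177 to 110795 on WT arrays and 92970 to 113350 on WT+GH arrays. Myh7, the slow myosin heavy chain, read 124, 1133 and 192 on the WT arrays and 2393, 3040.2 and 2541 on the WT+GH arrays (2.997 ± 0.62, adjusted p = 0.0165). Tnnc1, slow troponin C, read 213, 1309 and 415 on the WT arrays and 2531, 2499 and 2410.0 on the WT+GH arrays (2.27 ± 0.49, adjusted p = 0.0168), and Myl2, the slow regulatory light chain, read 2033, 5459.5 and 2539 on the WT arrays and 6527, 6217 and 6409 on the WT+GH arrays (1.06 ± 0.26, adjusted p = 0.0217). In each case WT array 2 was far above the other 2 WT arrays and below all WT+GH arrays. The calls were lost with 1 array fewer for Myh7 (adjusted p = 0.0503 to 0.0572 without WT array 3 or WT+GH array 2 or 3), Tnnc1 (adjusted p = 0.0503 to 0.0597 without WT array 3 or WT+GH array 2 or 3) and Myl2 (adjusted p = 0.059 to 0.0775 without WT array 1 or 3 or WT+GH array 1, 2 or 3). Of the slow fibre list, 1 member rose without WT array 3 or WT+GH array 2 or 3, 7 rose without WT array 2, and 3 rose with only the 6 wild-type arrays. Atp2a2, the slow calcium pump SERCA2, read 3777, 5496 and 3864 on the WT arrays and 8434, 7610.5 and 7794 on the WT+GH arrays (0.88 ± 0.12, adjusted p = 2.09e-04), with no overlap, although its other probe sets ranged down to -0.23. Sln, sarcolipin, a small inhibitor of SERCA pumps, fell (-0.66 ± 0.18; adjusted p = 0.0583 to 0.115 without WT array 2 or 3 or WT+GH array 3). Atp2a2 (0.16, adjusted p = 0.377) and Sln (-0.19, adjusted p = 0.626) lost their calls over the mean of all probe sets. Sln (adjusted p = 0.0715) lost its call with plain empirical Bayes, and Myh7 (adjusted p = 0.0684), Sln (adjusted p = 0.0634) and Tnnc1 (adjusted p = 0.0721) with only the 6 wild-type arrays.

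None of 17 fast fibre genes passed limma's test (5 had an unadjusted p under 0.05), and all but 1 were on the lower side, with a median of -0.20. Median centring, which lowers the WT+GH arrays relative to the WT arrays, called 14 of them lower. Myh4, the fast IIb myosin, had a change of -0.21 ± 0.11 (adjusted p = 0.249), Myh1 of -0.046 ± 0.081 and Myh2 of 0.14 ± 0.14. Without WT+GH array 1, 8 fast fibre genes fell, Myh4 among them. General fibre markers gave no call among 10 in limma, with 2 at an unadjusted p under 0.05. Ckm, muscle creatine kinase, had a signal of 60417 ± 2295 to 47897 ± 10153, and Acta1, skeletal actin, of 54322 ± 4074 to 46482 ± 11528, abundant on both sets of arrays. Without WT+GH array 1, 4 of these skeletal muscle fibre markers fell. The muscle stretch genes Ankrd1 (2.09 ± 0.16), Ankrd2 (1.39 ± 0.30) and Csrp3 (1.68 ± 0.43) rose, and Csrp3 was lowest on WT array 1, with signals of 1113, 4268 and 3539.5 on the WT arrays. The calls of Csrp3 (adjusted p = 0.0542 to 0.0942 without WT+GH array 1, 2 or 3 or KO+GH array 1, 2 or 3) and Ankrd2 (adjusted p = 0.0607 without WT array 1) were lost with 1 array fewer. The myogenic factor Myog rose by 0.70 ± 0.14 and Myod1 fell (-0.87 ± 0.17), in a list of 27 myogenesis genes of which 4 rose and 1 fell (18.5%). Myod1 (-0.26, adjusted p = 0.428) lost its call over the mean of all probe sets. Csrp3 (1.497, adjusted p = 0.0531) lost its call under median centring, and Csrp3 (adjusted p = 0.0895) with only the 6 wild-type arrays.

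At the neuromuscular junction 3 of 17 genes rose, the receptor kinase Musk (0.80 ± 0.16), its activator Dok7 (1.33 ± 0.16) and its co-receptor Lrp4 (0.73 ± 0.17; adjusted p = 0.0534 without WT+GH array 1), and Hdac9, a histone deacetylase, fell (-1.25 ± 0.25). None of 23 genes of calcium release and coupling fell and 3 rose (13.0% called, beside 11.3% of all genes), among them the store-operated channel Orai1 (0.52 ± 0.073) and Rcan1, an inhibitor of calcineurin (0.66 ± 0.12). Of the 23, 22 lie above the 40th percentile of signal, where 1975 of 12654 genes were called. Of the ion channels, the KATP channel subunit Kcnj11 (-0.98 ± 0.088), the potassium channel subunit Kcnq5 (-1.23 ± 0.20) and the chloride channel Clcn1 (-0.67 ± 0.11) fell, and the potassium channel subunit Kcnf1 rose (1.74 ± 0.33). In the myostatin and activin list 6 of 22 rose and 3 fell. The receptors Tgfbr1 (0.77 ± 0.11) and Acvr1b (0.68 ± 0.11) and the ligand Bmp4 (0.83 ± 0.16) rose, while Id1 (-0.77 ± 0.12) and Id3 (-0.65 ± 0.11), targets of BMP signalling, fell. Without KO array 3, 5 members of the myostatin and activin list fell. Acvr1b (0.23, adjusted p = 0.547) and Hdac9 (-0.71, adjusted p = 0.0777) lost their calls over the mean of all probe sets. Dok7 (0.018, adjusted p = 0.973) lost its call without the _x_at, _s_at and _a_at probe sets.

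Of 17 FOXO and ubiquitin ligase genes 5 rose and 1 fell. Foxo3 rose by 0.54 ± 0.099, Trim63, the muscle ligase MuRF1, by 0.66 ± 0.13, and Cblb, a ligase for IRS1, by 0.79 ± 0.13. Fbxo32, the ligase atrogin-1, had a change of 0.15 ± 0.11 (adjusted p = 0.47) and fell in KO (-0.84 ± 0.11), with a difference between genotypes of 0.99 ± 0.16, adjusted p = 0.00749. The proteasome had few calls, with 1 rise and 1 fall among 31 subunits (6.45%, beside 11.3% of all genes), and autophagy and lysosome genes had 3 rises and 3 falls among 25 (24.0%). Every one of these autophagy and lysosome calls was lost with plain empirical Bayes, and each was lost without at least 1 single array. The 3 rises were all lost without WT+GH array 1. Around mTORC1, 4 of 22 genes rose and 4 fell, with 2 falls without WT+GH array 2 and 2 rises and 2 falls without WT+GH array 3. The inhibitors Ddit4 and Sesn1 (0.92 ± 0.12) rose, while the inhibitors Deptor (-0.45 ± 0.11) and Ddit4l (-0.46 ± 0.095) fell. Of 20 amino acid transporters 5 rose, 3 without WT+GH array 3, and 1 fell. Slc7a8, a carrier of large neutral amino acids, read 252, 149.6 and 264 on the WT arrays and 999.8, 1144 and 1132 on the WT+GH arrays (2.21 ± 0.20, adjusted p = 2.51e-06), with no overlap. Its partner chain Slc3a2 rose by 0.58 ± 0.080 and the glutamine carrier Slc38a3 by 0.74 ± 0.12, and Slc1a5 fell (-0.54 ± 0.12). In the ATF4 response 2 of 24 rose and 3 fell (20.8%), the factors Atf5 (-0.76 ± 0.12) and Ddit3 (-0.70 ± 0.14) among the falls. Of 22 chaperones of the endoplasmic reticulum 3 fell (13.6%), namely the disulphide isomerases Pdia3 (-0.52 ± 0.12) and Pdia4 (-0.83 ± 0.19) and the degradation factor Edem1 (-0.68 ± 0.16), and the calls of Pdia3 (adjusted p = 0.0553 without WT array 3) and Edem1 (adjusted p = 0.0548 without WT+GH array 1) were lost with 1 array fewer. Of 30 ribosome biogenesis genes 2 rose, the growth regulator Myc (0.89 ± 0.14) among them, and 2 fell, and of 10 polyamine genes 1 rose and 1 fell. The share of ribosome biogenesis genes called was 13.3%, beside 11.3% of all genes. All 30, like all 22 chaperones and all 25 autophagy and lysosome genes, lie above the 40th percentile of signal, where 1975 of 12654 genes were called. Ddit3 (-0.52, adjusted p = 0.232), Pdia3 (-0.14, adjusted p = 0.606), Pdia4 (-0.45, adjusted p = 0.273) and Slc1a5 (-0.14, adjusted p = 0.429) lost their calls over the mean of all probe sets. Trim63 (0.47, adjusted p = 0.0523) lost its call under median centring, and Deptor (adjusted p = 0.0667), Pdia3 (adjusted p = 0.067) and Slc1a5 (adjusted p = 0.0542) with plain empirical Bayes. Fbxo32 (0.85, adjusted p = 0.0551) lost its call for the difference over the mean of all probe sets. Fbxo32 (adjusted p = 0.14) lost its call for the difference with plain empirical Bayes.

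**Figure D4:**
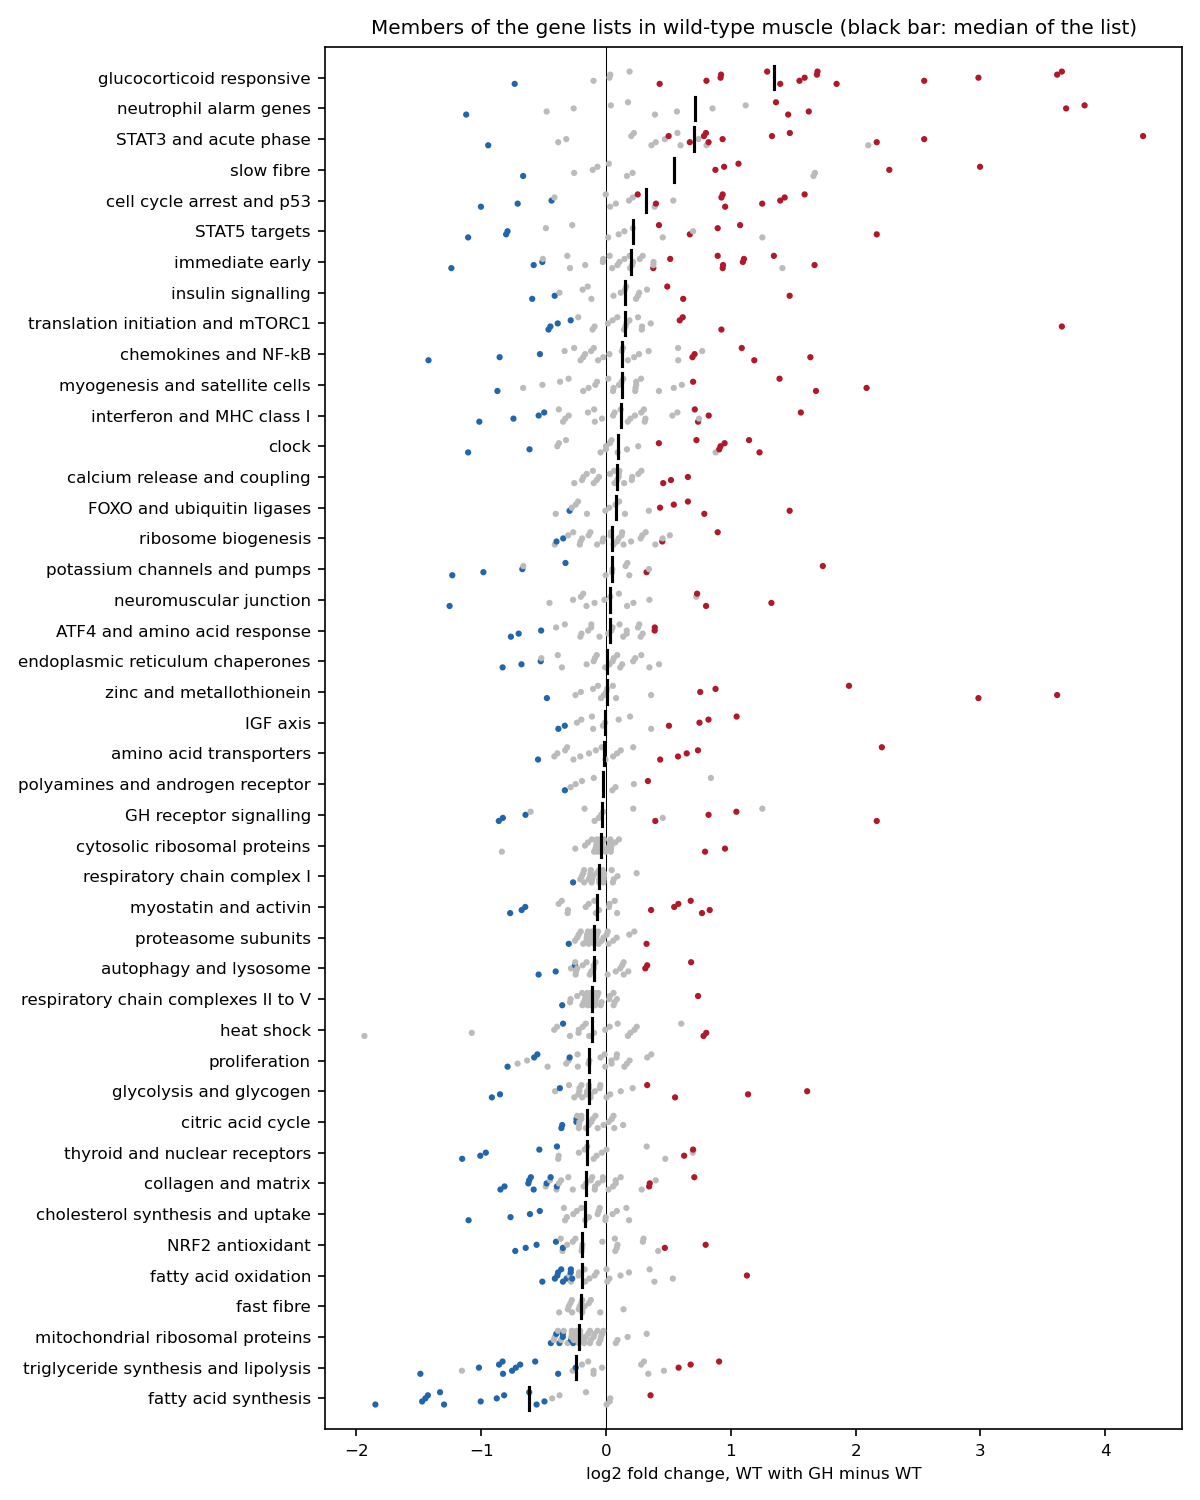
Log2 fold change (WT with GH minus WT) of every measured member of 44 pathway lists, 1 point per gene, red where it rose, blue where it fell and grey where it did not pass, with the list median as a black bar. The glucocorticoid responsive list has the highest median (1.34) and fatty acid synthesis the lowest (-0.62).

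Cell cycle arrest and p53 genes rose in 9 of 20 cases and fell in 3 (median 0.32). Trp53inp1 rose by 1.25 ± 0.12, Gadd45a by 1.43 ± 0.16 and Gadd45b by 0.95 ± 0.14, and the p53 target Phlda3 (-1.002 ± 0.10) and the inhibitor Cdkn2c (-0.71 ± 0.092) fell. Of 25 proliferation genes 4 fell (16.0%) and none rose, namely the D-type cyclins Ccnd1, Ccnd2 (-0.58 ± 0.11) and Ccnd3 (-0.55 ± 0.14) and the replication clamp Pcna (-0.29 ± 0.081). The calls of Ccnd3 (adjusted p = 0.0506 to 0.0865 without WT array 1 or WT+GH array 1 or 3) and Pcna (adjusted p = 0.0535 to 0.118 without WT array 2 or WT+GH array 1, 2 or 3) were lost with 1 array fewer. Of 32 immediate early genes 9 rose and 3 fell. Zfp36, which degrades cytokine mRNAs, rose by 1.67 ± 0.12, Maff by 1.34 ± 0.20, Fosl2 by 1.11 ± 0.21 and Junb by 0.94 ± 0.13, while Dusp4, a MAP kinase phosphatase, fell (-1.24 ± 0.20), as did Jun (-0.51 ± 0.099). Fos (-0.025 ± 0.21, adjusted p = 0.964) and Egr1 (0.22 ± 0.14, adjusted p = 0.373) were not called, and Egr1 was called higher without WT array 1 (0.41, adjusted p = 0.0172). Ccnd3 (-0.022, adjusted p = 0.962) lost its call over the mean of all probe sets. Pcna (-0.24, adjusted p = 0.0718) lost its call with arrays centred on the genes above the 40th percentile, Ccnd3 (adjusted p = 0.0663) and Pcna (adjusted p = 0.116) with plain empirical Bayes, and Pcna (adjusted p = 0.0867) with only the 6 wild-type arrays.

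In the clock list 7 of 21 genes rose and 2 fell. Per1, Per2 (1.15 ± 0.26) and Per3 (0.72 ± 0.15), which repress CLOCK and BMAL1, rose together with Nfil3 (1.23 ± 0.22) and Ciart (0.95 ± 0.20), and Nr1d1, the repressor REV-ERB alpha, fell (-1.10 ± 0.13). The hour at which each mouse was killed is not given in the sources used here. Arntl, the gene of BMAL1, had a change of -0.0011 ± 0.29 (adjusted p = 0.999) and Clock of -0.39 ± 0.19 (adjusted p = 0.228). Antioxidant genes fell in 5 of 23 cases and rose in 2. Catalase, Cat, changed by -0.64 ± 0.13, the glutathione peroxidase genes Gpx1 and Gpx3 by -0.40 ± 0.078 and -0.56 ± 0.12, and Sod3 by -0.73 ± 0.12, while Gstm2 rose by 0.80 ± 0.099. Without WT array 1, 8 members of the NRF2 antioxidant list fell. Among 22 heat shock genes 2 rose and 1 fell (13.6%, beside 11.3% of all genes), and no rise was left without any 1 of the 3 WT+GH arrays or without WT array 1 or 3. All 22 lie above the 40th percentile of signal, where 1975 of 12654 genes were called. In the list of thyroid and nuclear receptor genes 5 of 19 fell and 2 rose, with Ppargc1b, a coactivator of mitochondrial genes (-1.01 ± 0.11), and Dio2, which makes active thyroid hormone (-1.15 ± 0.22), among the falls. Cat (-0.32, adjusted p = 0.214) and Dio2 (-0.54, adjusted p = 0.0694) lost their calls over the mean of all probe sets. Gpx3 (adjusted p = 0.0577) lost its call with plain empirical Bayes.

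Collagen and matrix genes fell in 9 of 35 cases and rose in 3 (median -0.16). Loxl1, a cross-linking oxidase (-0.85 ± 0.13), Col15a1 (-0.60 ± 0.11), Fn1, fibronectin (-0.62 ± 0.12), and Tgfb1 (-0.81 ± 0.13) fell, and Timp3, an inhibitor of metalloproteinases, rose (0.71 ± 0.13). It was left as the only rise without WT array 1 or 2, any WT+GH array or any KO+GH array. The fibroblast markers moved with them: 6 of 13 fell, none rose and all 13 lay on the lower side, with summed signals of 121328 to 125470 on WT arrays and 94093 to 112377 on WT+GH arrays. Without WT+GH array 2 or WT array 3, or with plain empirical Bayes, 3 fibroblast markers fell. The part of fibroblasts in the falls of matrix genes was not tested. Macrophage markers fell in 5 of 13 cases (Adgre1, the F4/80 antigen, at -0.93 ± 0.15 and Csf1r at -0.64 ± 0.12) and rose in 1, with sums of 13194 to 20215 on WT arrays and 10587 to 10900 on WT+GH arrays. Cd74, the invariant chain of MHC class II, fell (-1.16 ± 0.12), and 2 of 8 class II markers fell in all. Loxl1 (-0.37, adjusted p = 0.28) and Tgfb1 (-0.27, adjusted p = 0.442) lost their calls over the mean of all probe sets.

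Endothelial markers split by gene. Kdr, VEGF receptor 2, read 1028, 1092 and 819 on the WT arrays and 337, 313 and 323 on the WT+GH arrays (-1.51 ± 0.13, adjusted p = 1.70e-06). Flt1, VEGF receptor 1, read 716, 699 and 644 on the WT arrays and 2097, 1950.3 and 1837 on the WT+GH arrays (1.48 ± 0.13, adjusted p = 1.75e-06), and all 4 of its probe sets rose. The receptors went opposite ways without overlap, and of 14 endothelial markers 6 rose and 3 fell, with sums of 12455 to 14265 on WT arrays and 14999 to 16461 on WT+GH arrays. Sox17 (0.98 ± 0.16), Esam (0.58 ± 0.099) and Cldn5 (0.60 ± 0.13) rose. Without any 1 of the 3 WT+GH arrays, or without WT array 2 or KO+GH array 2, 1 endothelium marker fell. Of 12 smooth muscle and pericyte markers 3 rose and 2 fell. Of 10 hepatocyte markers 2 rose and 1 fell, with Ttr, transthyretin, at 1.93 ± 0.41. The other rise, Apoa1, was lost without any 1 WT, WT+GH or KO+GH array (adjusted p = 0.0508 to 0.1175). The fall, Cyp2e1, was lost without WT array 1 or 3 or WT+GH array 2 or 3 (adjusted p = 0.0624 to 0.0854). Of 7 Schwann cell markers 2 rose, and 1 of 8 tendon and 1 of 10 keratinocyte markers rose. Of these, Ncmap of Schwann cells was lost without WT array 1 or any 1 WT+GH array (adjusted p = 0.0583 to 0.0843). Thbs4 of tendon was lost without WT array 3 or WT+GH array 1 (adjusted p = 0.05985 to 0.08655). Krt5 of keratinocytes was lost without WT array 1 or WT+GH array 2 or 3 (adjusted p = 0.0545 to 0.062). The share of tendon markers called was 12.5% and that of keratinocyte markers was lower, beside 11.3% of all genes. Apoa1 (1.21, adjusted p = 0.0723), Cldn5 (0.42, adjusted p = 0.074) and Thbs4 (0.17, adjusted p = 0.247) lost their calls under median centring. Plain empirical Bayes ended the calls of Apoa1 (adjusted p = 0.0904) and Cyp2e1 (adjusted p = 0.0981). It also ended those of Ncmap (adjusted p = 0.0647) and Thbs4 (adjusted p = 0.0912). With only the 6 wild-type arrays, Krt5 (adjusted p = 0.0544) and Thbs4 (adjusted p = 0.067) lost their calls.

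The change with GH was then compared with that in KO muscle (KO+GH against KO, 3 mice each), where 2638 genes (14.5%) were called, 1006 (5.53%) higher and 1632 (8.97%) lower. The test of the difference, an interaction term in the same fit, called 94 genes (0.517%): 26 (0.143%) with a more positive change in wild type and 68 (0.374%) with a more negative one. Of the 94, 53 were also called for GH in WT, and 28 of these had the larger log2 fold change in absolute size in wild type. In 23 of the 53 the changes in WT and KO had opposite signs. Slc25a25, a calcium-dependent ATP-Mg/phosphate carrier of mitochondria, read 1684, 1523 and 1493 on the WT arrays and 5870.5, 5246 and 5472 on the WT+GH arrays. Its signal was higher with GH on all wild-type arrays (1.80 ± 0.10, adjusted p = 1.66e-08), and in KO its change was -0.66 ± 0.10, a difference of 2.47 ± 0.14, adjusted p = 1.65e-07. Klf15 changed by 0.28 ± 0.11 in KO, a difference of 1.42 ± 0.15, adjusted p = 1.81e-04. Aldh9a1, an aldehyde dehydrogenase of carnitine synthesis, read 827, 1341 and 1332 on the WT arrays and 4193, 4237 and 4602 on the WT+GH arrays, a change of 1.91 ± 0.17 against 0.44 ± 0.17 in KO (difference 1.47 ± 0.24, adjusted p = 0.00697). Krt88, a keratin, Apold1, an endothelial early response gene, and B330016D10Rik were the other 3 of the 6 largest positive differences among genes that also passed for GH in WT and lie above the 40th percentile of signal. Their differences were 2.33, 1.64 and 1.39, and those of Krt88 (adjusted p = 0.0623 to 0.101 without WT array 2 or 3, WT+GH array 1, 2 or 3, KO array 2 or 3 or KO+GH array 1 or 2) and Apold1 (adjusted p = 0.0716 to 0.107 without WT array 2 or 3, WT+GH array 1, 2 or 3 or KO+GH array 1, 2 or 3) were lost with 1 array fewer. Slc25a25 (1.38, adjusted p = 0.0628), Krt88 (adjusted p = 0.0521) and Apold1 (adjusted p = 0.0628) lost their calls for the difference over the mean of all probe sets. Aldh9a1 (adjusted p = 0.112), Krt88 (adjusted p = 0.133), Apold1 (adjusted p = 0.175) and B330016D10Rik (adjusted p = 0.0621) lost their calls for the difference with plain empirical Bayes.

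By the same rule, the 6 largest negative differences were in genes that rose less, or fell, in wild type. Hbegf, a ligand of the EGF receptor, read 526, 873 and 676 on the WT arrays and 2312, 2103 and 2083 on the WT+GH arrays and rose by 1.64 ± 0.13 in wild type against 3.86 ± 0.13 in KO (difference -2.23 ± 0.19, adjusted p = 2.06e-05). Srxn1, sulfiredoxin, rose by 0.47 ± 0.14 against 2.68 ± 0.14 (-2.21 ± 0.20, adjusted p = 2.06e-05), and Btg2, an antiproliferative gene, by 0.93 ± 0.22 against 3.07 ± 0.22 (-2.13 ± 0.31, adjusted p = 0.00508). Sertad1, a regulator of E2F, rose by 0.53 ± 0.12 against 2.10 ± 0.12 (-1.57 ± 0.17, adjusted p = 2.41e-04). For GH in WT alone, Srxn1 (adjusted p = 0.0509 to 0.152 without WT array 1 or 2, WT+GH array 1, 2 or 3, KO array 2 or KO+GH array 1, 2 or 3), Btg2 (adjusted p = 0.0508 to 0.0671 without WT array 1 or 2 or WT+GH array 1) and Sertad1 (adjusted p = 0.0533 to 0.063 without WT array 3 or WT+GH array 2 or 3) lost their call with 1 array fewer. Tmem267 and Sox4 turned their sign, with Tmem267 at -1.12 ± 0.11 in wild type and 0.41 ± 0.11 in KO, and Sox4 at -0.64 ± 0.098 and 0.96 ± 0.098. Btg2 (0.50, adjusted p = 0.207), Sox4 (-0.46, adjusted p = 0.12) and Srxn1 (0.18, adjusted p = 0.579) lost their calls over the mean of all probe sets. Sertad1 (0.34, adjusted p = 0.0822) and Srxn1 (0.29, adjusted p = 0.174) lost their calls under median centring, and Btg2 (adjusted p = 0.0575) and Srxn1 (adjusted p = 0.129) with plain empirical Bayes. Sox4 (-0.51, adjusted p = 0.609) lost its call for the difference over the mean of all probe sets. Btg2 (adjusted p = 0.0687) lost its call for the difference with plain empirical Bayes.

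Of the 32 immediate early genes, 9 passed the interaction test, against 0.517% of all genes, and 8 of these had the more negative change in wild type. Egr1, an early growth response factor, differed by -4.10 ± 0.19, adjusted p = 1.77e-08, Rrad, a small GTPase, by -5.25 ± 0.37, adjusted p = 2.37e-06, and Dusp5 by -3.84 ± 0.34, adjusted p = 2.06e-05, and none of these 3 was called for GH in WT with all arrays. Nr4a1, an orphan nuclear receptor, was the exception, with a difference of 0.99 ± 0.21, adjusted p = 0.0489, and it was lost with 1 array fewer (adjusted p = 0.0678 to 0.161 without WT array 1 or 2, WT+GH array 1, 2 or 3, KO array 2 or 3 or KO+GH array 1, 2 or 3). The feedback inhibitor Socs2 rose by 1.56 ± 0.16 in KO, more than in wild type (difference -1.10 ± 0.22, adjusted p = 0.0434), and that difference was lost with 1 array fewer (adjusted p = 0.0864 to 0.135 without WT array 2 or 3, WT+GH array 1, 2 or 3, KO array 2 or 3 or KO+GH array 1, 2 or 3). For Socs3 the values were 2.17 ± 0.29 in wild type and 3.87 ± 0.29 in KO, and for Cish 1.25 ± 0.45 and 2.68 ± 0.45, and neither difference passed (adjusted p = 0.158 and 0.611). The slow fibre genes Myh7 and Tnnc1 had changes of -0.0098 ± 0.62 and 0.028 ± 0.49 in KO, but their differences did not pass either (adjusted p = 0.347 and 0.371), while that of Atp2a2 did (1.05 ± 0.17, adjusted p = 0.00953). The glucocorticoid responsive and fatty acid synthesis lists gave 1 and 0 interaction calls, and their medians in KO were 1.19 and -0.64. Nr4a1 (adjusted p = 0.0994), Socs2 (-0.79, adjusted p = 0.184) and Atp2a2 (0.30, adjusted p = 0.598) lost their calls for the difference over the mean of all probe sets. Nr4a1 (0.98, adjusted p = 0.0688) and Socs2 (-1.11, adjusted p = 0.0811) lost their calls for the difference under median centring, Nr4a1 (adjusted p = 0.0677) and Socs2 (adjusted p = 0.05003) with arrays centred on the genes above the 40th percentile, Nr4a1 (adjusted p = 0.0521) with an added constant of 5, Socs2 (-0.94, adjusted p = 0.0642) with an added constant of 100, and Nr4a1 (adjusted p = 0.277), Socs2 (adjusted p = 0.232) and Atp2a2 (adjusted p = 0.158) with plain empirical Bayes.

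**Figure D5:**
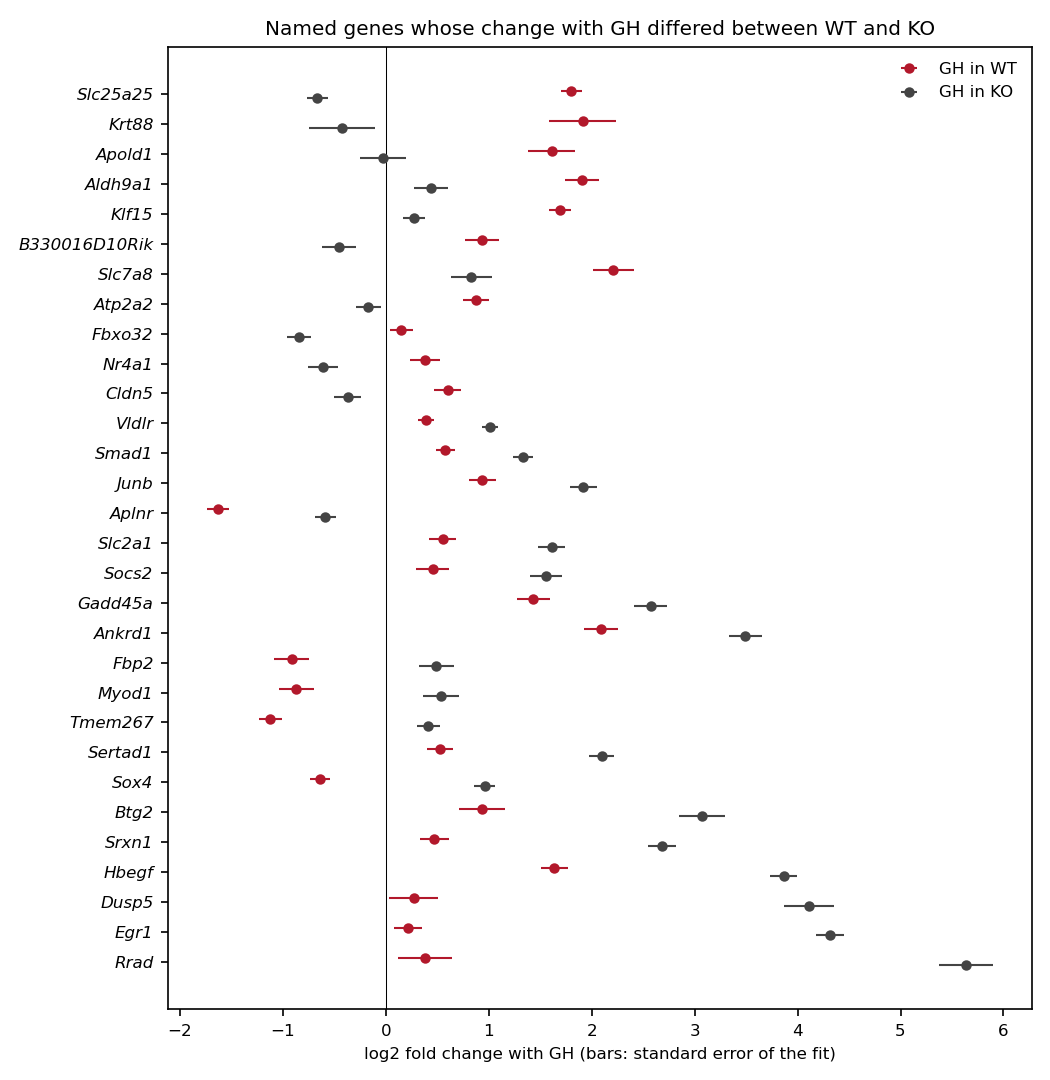
Log2 fold change with GH in WT (red) and in KO (dark grey) for the 30 named genes whose difference passed the interaction test, with bars for the standard error of the fit, ordered by the difference. Slc25a25 at the top rose by 1.80 in WT and had a change of -0.66 in KO, and Rrad at the bottom had 0.38 in WT and 5.64 in KO.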

How the data were processed

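Total RNA of skeletal muscle from 12 mice was labelled with biotin and hybridized to Affymetrix mouse arrays, 1 array per mouse, per the labels. The deposited values are MAS5 signals, per the submitters' processing notes, an intensity that the authors had scaled to a trimmed mean of 500 on every array (2% left out at each end, as the values show). Pairs of the 6 wild-type arrays had r of 0.957 to 0.980 on the log2 scale, and none were copies. The precision is limited by 3 arrays per group, and p-values measure only the spread between these arrays.

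From these values log2(signal + 25) was computed, 25 being near the pooled 25th percentile of signal. With limma 3.58.1 (R 4.3.3, statmod 1.5.0), 4 group means were fitted on all 12 arrays and 45037 non-control probe sets, with trend and robust empirical Bayes, and the contrasts WT+GH minus WT, KO+GH minus KO and their difference were adjusted by Benjamini-Hochberg. Genes were named from the platform annotation: 34945 probe sets carry 1 symbol, 932 several and 9160 none, and the brightest probe set stood for its gene. Fixed names were Ghr, Jak2, Stat5a, Stat5b, Socs2, Cish, Socs3 and Igf1. Further names were the 15 largest rises and 15 largest falls above the 40th percentile without overlap, up to 6 called members of each list by p-value, the 6 largest differences between genotypes in each direction, and members needed to account for a list, which were chosen after their values were seen. The members and the lists were chosen with earlier results of these data known. Promoters (250 bases before the start) came from RefSeq, GRCm38.p6. The alternatives were other added constants, filters, probe set choices, scalings, variance models and single arrays left out. The fit was tested on simulated data first.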

Additional observations from a re-analysis of the deposited data

Results flagged for a closer look

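For 30 of the named genes the change with GH differed between wild type and KO by the interaction test, and the differences below are the log2 change in WT minus that in KO. More positive changes in wild type were 2.47 for Slc25a25, 2.33 for Krt88, 1.64 for Apold1, 1.47 for Aldh9a1, 1.42 for Klf15, 1.39 for B330016D10Rik, 1.38 for Slc7a8, 1.05 for Atp2a2, 0.99 for Fbxo32, 0.99 for Nr4a1 and 0.97 for Cldn5. More negative changes among early response and growth genes were -5.25 for Rrad, -4.10 for Egr1, -3.84 for Dusp5, -2.23 for Hbegf, -2.13 for Btg2, -1.57 for Sertad1, -1.14 for Gadd45a and -0.98 for Junb. Genes of redox balance, sugar and lipid uptake had -2.21 for Srxn1, -1.41 for Fbp2, -1.06 for Slc2a1 and -0.62 for Vldlr. Transcription and signalling genes had -1.60 for Sox4, -1.41 for Myod1, -1.41 for Ankrd1, -1.10 for Socs2, -1.04 for Aplnr and -0.76 for Smad1, and the membrane protein Tmem267 had -1.54.

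Rrad was the largest of these. Its signals with GH were 184, 101 and 178 in wild type, and its change in KO was 5.64 ± 0.26. The difference was lost with 1 array fewer for Cldn5 (adjusted p = 0.0637 to 0.106 without WT array 1 or 3, WT+GH array 1, 2 or 3, KO array 1 or 2 or KO+GH array 1, 2 or 3), Gadd45a (adjusted p = 0.0614 to 0.151 without WT array 1, 2 or 3, WT+GH array 1, 2 or 3, KO array 2 or 3 or KO+GH array 1, 2 or 3), Junb (adjusted p = 0.0735 to 0.104 without WT array 3, WT+GH array 2 or 3 or KO+GH array 1, 2 or 3), Slc7a8 (adjusted p = 0.0668 to 0.14 without WT array 2, WT+GH array 1, 2 or 3, KO array 1 or 2 or KO+GH array 1, 2 or 3), Smad1 (adjusted p = 0.0534 to 0.0812 without WT+GH array 1 or 3 or KO+GH array 1, 2 or 3), Slc2a1 (adjusted p = 0.055 to 0.0654 without WT+GH array 2 or KO+GH array 1 or 2) and Vldlr (adjusted p = 0.0589 to 0.0706 without KO+GH array 1 or 2). Of the 30, 8 passed under all settings run. Gadd45a (adjusted p = 0.0751), Myod1 (-0.41, adjusted p = 0.734), Slc2a1 (-0.89, adjusted p = 0.121), Slc7a8 (adjusted p = 0.0735) and Vldlr (-0.45, adjusted p = 0.334) lost their calls for the difference over the mean of all probe sets. Aplnr (-1.02, adjusted p = 0.0933), Slc2a1 (-0.80, adjusted p = 0.384) and Vldlr (-0.29, adjusted p = 0.804) lost their calls for the difference without the _x_at, _s_at and _a_at probe sets. Cldn5 (0.96, adjusted p = 0.0726), Gadd45a (-1.15, adjusted p = 0.0683), Junb (-0.99, adjusted p = 0.0726), Slc7a8 (1.37, adjusted p = 0.0735) and Vldlr (-0.63, adjusted p = 0.053) lost their calls for the difference under median centring, Slc7a8 (1.42, adjusted p = 0.0606) with an added constant of 5, and Ankrd1 (adjusted p = 0.113), Aplnr (adjusted p = 0.0529), Cldn5 (adjusted p = 0.191), Fbp2 (adjusted p = 0.154), Gadd45a (adjusted p = 0.224), Junb (adjusted p = 0.174), Myod1 (adjusted p = 0.157), Slc2a1 (adjusted p = 0.0902), Slc7a8 (adjusted p = 0.196), Smad1 (adjusted p = 0.127) and Vldlr (adjusted p = 0.196) with plain empirical Bayes.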

How the results depend on the processing

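The count of genes higher with GH in wild type (826) stayed within 1.5 times under all alternatives but median centring, which gave 429 higher and 3202 lower (11.8% higher) and 16 positive differences between genotypes. The count lower with GH (1234) was 660 with plain empirical Bayes and 767 with only the 6 wild-type arrays. Centring on the genes above the 40th percentile, chosen after seeing the data, gave 53% higher. The interaction counts (26 positive, 68 negative) were 4 and 21 with plain empirical Bayes, while positive counts were 41 with the filter at the 60th percentile and 45 with array weights. Leaving out 1 array gave 572 to 930 genes higher, 755 to 1389 lower, a share higher of 40.1% to 44.1%, 11 to 35 positive and 44 to 75 negative differences. Genes lower were 821 without WT+GH array 2, 755 without WT+GH array 3 and 803 without WT array 3, and the fewest differences (11 and 44) came without KO+GH array 1. The causes were not tested.

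Over the mean of all its probe sets a gene turned its sign for Atp1b2 (-0.056), Ctsl (0.020), Ddx18 (0.21), Hadhb (0.080), Mrps10 (0.0050), Oaz2 (0.036), Sdhc (0.071) and Ubtf (0.034). Without probe sets of the _x_at, _s_at and _a_at types it did for Cox7c (-0.72), Ctsl (0.29), Map1lc3a (-0.041), Mrpl15 (0.10) and Pdgfrb (-0.077). Of 291 named genes called for GH in WT, 157 kept the call under all 24 alternatives that gave a value, and 13 of 37 not called were called under at least 1. No paired analysis was possible because replicate numbers were given in accession order and each array has its own animal number. GH, the shift in control transcripts and brightness cannot be told apart, and changes of dim genes are understated by the added constant.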

Other observations

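Probe sets with no gene symbol, or with several, leaned the other way from named genes. Of 10092 such probe sets 848 were higher with GH in wild type and 163 lower, with a median log2 fold change of 0.16, beside -0.013 for the 18193 probe sets read for a gene. The other 16752 probe sets that carry 1 symbol, dimmer copies of named genes, had 1106 higher and 619 lower and a median of 0.065. The median signal rose on the same arrays (97.4 to 102 against 80.3 to 87.0), and its part in this lean was not tested.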
